A study of Rattus norvegicus with 6 samples.

Results

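A set of 9 genes that regulate cell death was followed across rat ovaries: the survival genes Bcl2, Bcl2l1 and Mcl1, and the death genes Bax, Bid, Casp1, Casp2, Casp6 and Fas. Probe sets were chosen by annotation, as those that carry exactly 1 gene symbol equal to one of these names. This gave 18 of the 8799 probe sets on the array, of which 17 target rat transcripts of 7 genes and 1 is a control probe set for the mouse Fas gene. Mcl1 had no probe set with its symbol, and the 3 probe sets that name Bax name another locus as well, so neither gene is analysed here. Bcl2 had 3 rat probe sets, Bcl2l1 4, Bid 1, Casp1 3, Casp2 3, Casp6 2 and Fas 1. After dim probe sets had been left out, 13 of the 17 were tested, 4 of survival genes and 9 of death genes, covering 6 genes.

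In all, 3 groups of 2 Affymetrix rat expression arrays were compared: newborn (postnatal day 0) ovaries kept in culture for 7 days (cultured), fresh ovaries of postnatal day 4 (P4) and fresh ovaries of postnatal day 0 (P0). Culture was on floating filters in serum-free medium with insulin, transferrin, albumin and ascorbic acid, and each array held RNA from about 20 pooled ovaries. The labels name no strain or genotype, and the series text speaks of a progesterone treatment that no sample label assigns, so both cultured arrays are taken as labelled. Primordial follicles, each 1 oocyte in a layer of pregranulosa cells, form in the rat ovary in these days.

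Apoptosis is set off along a mitochondrial or a death receptor route. In the mitochondrial route, BAX and its relatives open the outer mitochondrial membrane, BCL2, BCL-XL (the product of Bcl2l1) and MCL1 hold them back, and BID, cut by a caspase, links the receptor route to the mitochondria. Caspases are the proteases that carry the process out, except that caspase-1 mainly matures interleukin-1 beta and interleukin-18 and drives an inflammatory form of cell death. In the perinatal ovary, many oocytes are lost by cell death as germ cell nests break up.

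With 2 arrays per group, a log2 change had a standard error of 0.259 at the median probe set. Arrays of a group correlated at 0.962 to 0.969 across probe sets, which are not independent. P0 replicate 1 differed from the other arrays on a GAPDH control, at 1324.2 against 2162.3 to 2775.1 on the others. Ovarian identity was present: the oocyte list had 6 measured genes, with the zona pellucida gene Zp2 at 1373.9 and 1309.9 in cultured, 1782.3 and 1466.4 in P4 and 282.4 and 338.3 in P0 ovaries. Of 7 tested oocyte probe sets, 3 passed upward in P4 against P0, 3 in cultured against P0 and 0 in cultured against P4. Of 3 probe sets of meiotic genes, 2, 2 and 0 passed, all downward. Granulosa probe sets (11 tested) had 3 higher, 2 lower and 4 lower in these comparisons, stromal ones (15 tested) had 0 in each, and erythroid ones (3 tested) had 0, 2 lower and 1 lower. In whole ovaries, fewer cells of a type and less RNA per cell cannot be told apart.

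Casp1 was the only gene of the 9 with a probe set that passed, and it did so in 1 comparison. A pair of promoter windows is shown here because Casp1 and Il1b, which encodes the interleukin-1 beta precursor that caspase-1 cuts, both passed upward in cultured against P4 ovaries. They run from 250 bases before to 50 after the transcription start (RefSeq, build GRCr8). The Casp1 window is chr8:10872580-10872879 on the plus strand and the Il1b window is chr3:137036532-137036831 on the minus strand. Capitals mark matches to 6 motifs searched on both strands. These were GGGCGG (the GC box), TATAAA (the TATA box), GAGGAA (a form of site bound by ETS factors) and TTCNNNGAA (the core bound by STAT factors). The others were the core of the interferon-stimulated response element and the NF-kappaB consensus. Other forms of ETS site were not searched.
Casp1: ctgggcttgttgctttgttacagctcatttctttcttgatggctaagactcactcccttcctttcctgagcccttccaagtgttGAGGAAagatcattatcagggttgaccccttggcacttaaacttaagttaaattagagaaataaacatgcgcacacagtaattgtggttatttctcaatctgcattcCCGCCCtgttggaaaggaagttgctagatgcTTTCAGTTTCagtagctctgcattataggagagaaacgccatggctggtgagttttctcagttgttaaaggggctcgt
Il1b: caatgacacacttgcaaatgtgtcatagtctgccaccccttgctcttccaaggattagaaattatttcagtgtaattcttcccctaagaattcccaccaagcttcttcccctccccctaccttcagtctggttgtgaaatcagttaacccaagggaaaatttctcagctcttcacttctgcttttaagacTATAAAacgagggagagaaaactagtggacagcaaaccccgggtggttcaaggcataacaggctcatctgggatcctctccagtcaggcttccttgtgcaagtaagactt
In the Casp1 window, the core of the interferon-stimulated response element matched at -28 to -19 on the minus strand. Of 33469 windows of this length in the table, 3.92% hold it. GGGCGG matched at -59 to -54 on the minus strand (33.1% of windows), and GAGGAA at -166 to -161 (27.6%). The Il1b window held TATAAA at -60 to -55, as did 14.2% of windows, and no other of the motifs. TTCNNNGAA (8.87% of windows) and the NF-kappaB consensus (7.51%) matched in neither. No matches among these motifs overlapped, and a match is a description of letters.

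**Figure D1:**
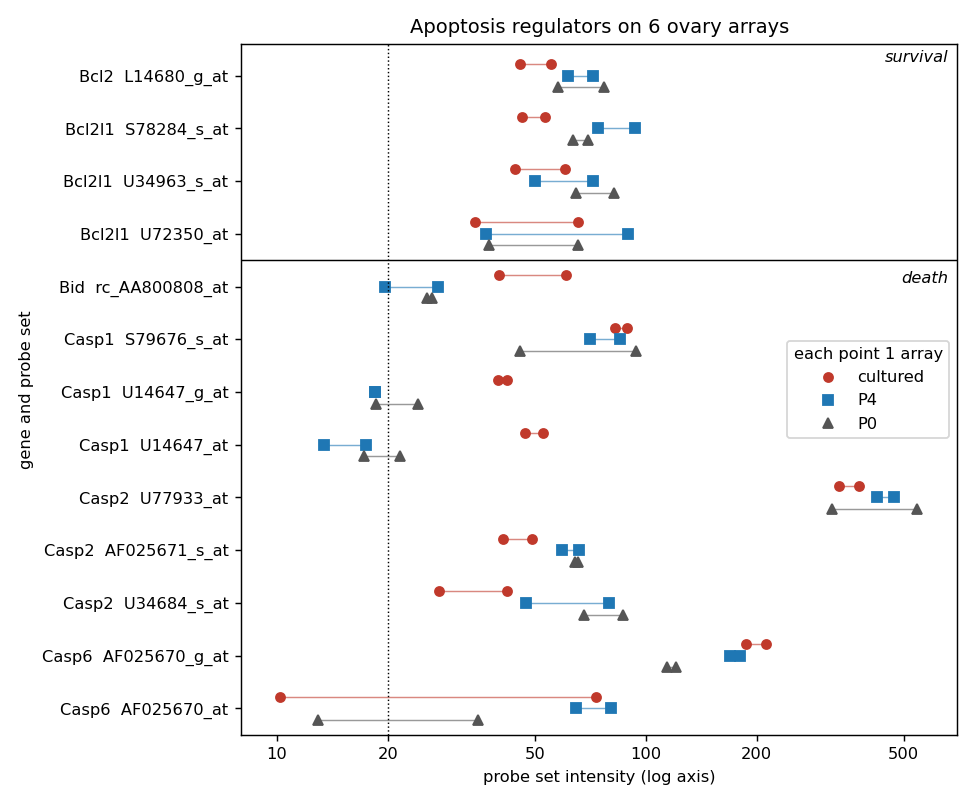
Intensity (log axis) of the 13 tested probe sets of the apoptosis regulators on each of 6 arrays, with cultured ovaries as circles, P4 as squares and P0 as triangles; the line joins the 2 arrays of a group and the dotted line is the highest reading of 23 control probe sets without a spiked transcript, 20. The U14647_at and U14647_g_at probe sets of Casp1, the AF025670_g_at probe set of Casp6 and the Bid probe set lay higher in both cultured arrays than in the 4 others.

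Among the survival genes, no tested probe set passed in any comparison. Bcl2, which encodes the founding inhibitor of mitochondrial apoptosis, read 45.6 and 55.5 in cultured, 61.7 and 72.2 in P4 and 57.8 and 77 in P0 ovaries on L14680_g_at. Both cultured arrays lay below the other 4, and the P4 and P0 arrays overlapped. The log2 change was -0.36 for cultured against P0 (SE 0.24, limma adjusted p = 0.45), -0.36 for cultured against P4 (SE 0.24, limma adjusted p = 0.598) and 0.00 for P4 against P0, with a 95% interval of -0.55 to 0.55. The other Bcl2 probe sets, L14680_at at 0.8 to 5.5 and S74122_s_at at 5.1 to 11.3, were too dim to test.

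Bcl2l1, whose long form BCL-XL keeps germ cells alive in the mouse, read 53.2 and 46.3 in cultured, 74.3 and 93.5 in P4 and 63.7 and 69.6 in P0 ovaries on S78284_s_at. The 3 groups did not overlap, with cultured lowest and P4 highest. The change for cultured against P4 was -0.67 (SE 0.23), with a 95% interval of -1.18 to -0.15 before any adjustment and a limma adjusted p = 0.21. It was -0.37 for cultured against P0 (limma adjusted p = 0.406) and 0.29 for P4 against P0 (limma adjusted p = 0.668). On U34963_s_at Bcl2l1 read 44.1 and 60.5 in cultured, 50 and 71.8 in P4 and 81.9 and 64.6 in P0 ovaries, with log2 changes of -0.44 for cultured against P0 and -0.25 for P4 against P0. The mean was highest in P0 here and in P4 on S78284_s_at, so these probe sets give P4 against P0 opposite signs. A further one, U72350_at, spread widely within groups, at 65.6 and 34.5 in cultured, 37.0 and 89.8 in P4 and 37.6 and 65.6 in P0 ovaries, and U72349_at, at 1.8 to 11.0, was too dim to test.

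Among the death genes, Casp1 gave the only call, on 1 of its 3 probe sets. S79676_s_at read 82.7 and 88.8 in cultured, 70.8 and 85.0 in P4 and 94.4 and 45.6 in P0 ovaries. There the P0 arrays spanned all others, and the log2 change for cultured against P4 was 0.13 (SE 0.31, limma adjusted p = 0.914). The U14647_at probe set read 52.7 and 47.2 in cultured, 13.4 and 17.4 in P4 and 21.6 and 17.2 in P0 ovaries. Both cultured arrays exceeded every fresh one, and both P4 arrays and P0 replicate 2 lay under 20, the highest reading on any array of 23 control probe sets for transcripts not spiked in. On this probe set Casp1 was at least 2.49-fold higher in cultured than in P4 ovaries, with arrays under 20 set to 20. The log2 change was 1.32 (SE 0.28, 95% interval 0.70 to 1.95 before any adjustment, limma adjusted p = 0.0363). Against P0 the group means gave at least 2.40-fold, without passing (log2 change 1.09, SE 0.28, limma adjusted p = 0.0553). P4 and P0 did not separate (log2 change -0.23, 95% interval -0.86 to 0.39). The call against P4 was lost without cultured replicate 1, cultured replicate 2, P4 replicate 1 or P4 replicate 2 (limma adjusted p = 0.166, 0.127, 0.195 and 0.102) and without the filter on dim probe sets (0.0706). It held without P0 replicate 1 (0.0453) or P0 replicate 2 (0.0431). Against P0 the change was 1.21 without P0 replicate 1 (0.113).

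The U14647_g_at probe set, which carries the same sequence name and so is not independent of the first, read 39.9 and 42.0 in cultured, 18.5 and 18.5 in P4 and 24.2 and 18.6 in P0 ovaries. It kept the same order without passing, with log2 changes of 0.89 for cultured against P4 (limma adjusted p = 0.147) and 0.75 for cultured against P0 (limma adjusted p = 0.152). The transcript forms that the Casp1 probe sets separate were not examined.

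The genes around caspase-1 were examined next, from a list of 8 of which 6 had probe sets. Il1b read 186.8 and 117.7 in cultured, 19.2 and 21.1 in P4 and 27.0 and 19.9 in P0 ovaries on M98820_at. It was at least 7.22-fold higher in cultured than in P4 ovaries (log2 change 2.49, SE 0.28, limma adjusted p = 0.00151) and at least 6.38-fold higher than in P0 (log2 change 2.34, SE 0.28, limma adjusted p = 0.002). Its M98820_g_at probe set read 83.8 and 45.1 in cultured, 14.0 and 6.4 in P4 and 9.7 and 9.5 in P0 ovaries, with log2 changes of 1.99 (limma adjusted p = 0.02) and 2.01 (limma adjusted p = 0.0145). All 4 fresh arrays lay under the filter on dim probe sets, an intensity of 14.8, so this probe set was tested only because of its cultured arrays and adds no separate support. M98820_g_at lost the call against P0 without P0 replicate 1, P0 replicate 2 or cultured replicate 1 (0.0569, 0.0613 and 0.112), and the call against P4 without P4 replicate 2 or cultured replicate 1 (0.102 and 0.155).

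Il18, the other classical substrate of caspase-1, read 122.4 and 87.7 in cultured, 57.1 and 60.2 in P4 and 59.9 and 61.2 in P0 ovaries on U77777_s_at. The cultured arrays lay above all others, with log2 changes of 0.75 against P4 (limma adjusted p = 0.161) and 0.71 against P0 (limma adjusted p = 0.125). Of the 6 tested probe sets in the list, these 2 of Il1b passed in cultured against P4 and against P0, and 4 did not pass. The list did not move together. Log2 changes against P0 and P4 were 0.11 and 1.07 for Il1a D00403_at and 0.10 and 0.07 for Il1r2 Z22812_at. They were 0.65 and 0.42 for the other Il18 probe set, AJ222813_s_at. None of the 6 passed in P4 against P0.

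Most tested probe sets of leukocyte markers moved in the same direction as Casp1 U14647_at. Ptprc M25823_s_at did not, with log2 changes of 0.06 for cultured against P0 and -0.19 for cultured against P4. Other Ptprc probe sets were too dim to test. K03039mRNA_s_at read 52.3 and 23.8 in cultured and 1.4 to 6.2 on the fresh arrays, and M10072mRNA_s_at 24.9 and 5.0 against 1.1 to 3.1. C1qc rc_AA891576_s_at had 0.04 against P0 and 0.83 against P4 (limma adjusted p = 0.936 and 0.0812). Of 14 tested leukocyte probe sets, 10 rose in cultured against P4 and 9 in cultured against P0, for 7 and 6 genes, and none fell. Some were tested only because of their cultured arrays, such as Fcgr2b X73371_at at 6.4 to 10.4 on the fresh ones, and with no filter 8 and 7 of 22 rose. None passed in P4 against P0, but 3 fell with the replicate block, 2 with the chip ID batch as a random block and 1 without P0 replicate 1. The counts against P0 were 2, 4 and 5 without cultured replicate 1, P0 replicate 2 and P0 replicate 1. The summed level of all 22 probe sets on the list was 2595.6 to 4975.0 in cultured, 506.3 to 636.7 in P4 and 795.6 to 948.8 in P0 ovaries. Lyz2, the macrophage lysozyme, read 2267.0 and 955.7 in cultured, 89.0 and 102.8 in P4 and 110.8 and 141.3 in P0 ovaries. None of the 22 was listed at 0, while 4 probe sets stayed at or under 20 on every array, among them the only one of the integrin gene Itgam, at 2.1 to 7.5. The part of leukocytes in the Casp1 result was not tested.

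**Figure D2:**
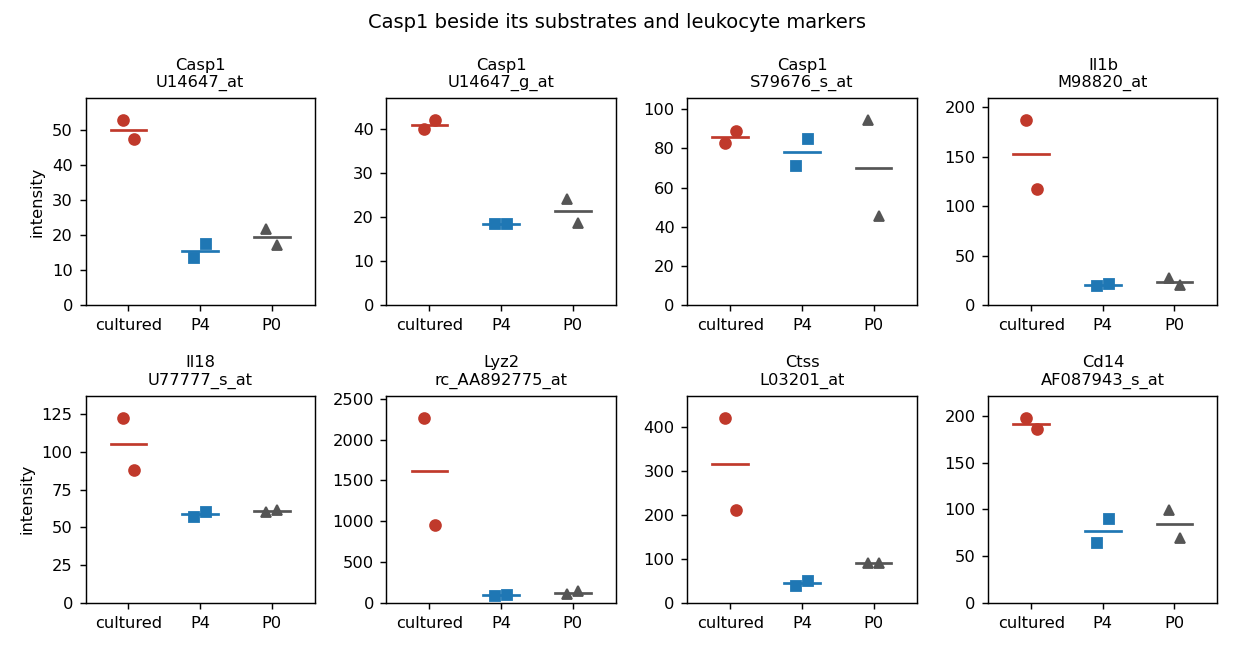
Intensity on each array (points; lines are group means of 2 arrays) for the 3 Casp1 probe sets, for Il1b and Il18, and for the leukocyte markers Lyz2, Ctss and Cd14, which were picked for display after their values were seen. Cultured ovaries are highest in every panel except that of S79676_s_at, where 82.7 and 88.8 lie within the P0 range of 45.6 to 94.4.

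Bid, the BH3-only protein that caspase-8 cuts, read 61.0 and 40.1 in cultured, 19.7 and 27.3 in P4 and 26.3 and 25.5 in P0 ovaries on rc_AA800808_at. As with Casp1, both cultured arrays lay above the fresh ones, but the 2 differed by more than the fresh arrays did. The log2 changes of 0.89 against P4 (SE 0.29, limma adjusted p = 0.176) and 0.77 against P0 (SE 0.29, limma adjusted p = 0.163) did not pass.

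Casp6 encodes an executioner caspase that cuts nuclear lamins. Its AF025670_g_at probe set read 211.7 and 186.8 in cultured, 179.9 and 169.0 in P4 and 114.0 and 120.6 in P0 ovaries. The groups did not overlap, and P0 was lowest. The log2 change was 0.73 for cultured against P0 (SE 0.20, limma adjusted p = 0.0811) and 0.54 for P4 against P0 (SE 0.20, limma adjusted p = 0.279), and neither passed. Within the chip ID batches that P4 and P0 arrays share, the P4 change was 0.62 in batch A and 0.46 in batch B.

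The other Casp6 probe set, AF025670_at, read 73.2 and 10.2 in cultured, 64.7 and 80.4 in P4 and 35.2 and 12.9 in P0 ovaries. One cultured array lay between the P4 arrays and the other below both P0 arrays, and both P4 arrays lay above both P0 arrays. The P4 against P0 change of 1.43 (SE 0.61, limma adjusted p = 0.362) passed with the replicate number, which marks the chip ID batch here, as a fixed block (limma adjusted p = 0.0308). It did not pass with the chip ID batch as a random block (limma adjusted p = 0.134). It was 0.76 within batch A and 2.10 within batch B.

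Casp2, an initiator caspase required for normal oocyte death in the mouse, had negative changes in culture that did not pass. On U77933_at it read 377.8 and 333.3 in cultured, 423.6 and 470.0 in P4 and 544.9 and 320.2 in P0 ovaries. The P0 arrays alone spanned all others there, and the log2 change for cultured against P0 was -0.23 (limma adjusted p = 0.663). On U34684_s_at it read 27.5 and 42.1 in cultured, 47.3 and 79.3 in P4 and 67.9 and 86.9 in P0 ovaries. Both cultured arrays lay below the others, with log2 changes of -1.01 against P0 (SE 0.30, limma adjusted p = 0.0926) and -0.72 against P4 (limma adjusted p = 0.317). AF025671_s_at gave 41.0 and 49.2 in cultured, 59.4 and 66.1 in P4 and 64.4 and 65.5 in P0 ovaries, a log2 change of -0.46 against P0 (limma adjusted p = 0.286).

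Fas encodes a death receptor of the tumour necrosis factor receptor family. Its rat probe set, D26112_s_at, read 1.7 and 2.8 in cultured, 1.0 and 1.0 in P4 and 1.5 and 1.2 in P0 ovaries, and the mouse Fas control probe set read 2.5 to 6.0. All lay under the control level of 20, so no fold is given and no order among the groups is read.

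**Figure D3:**
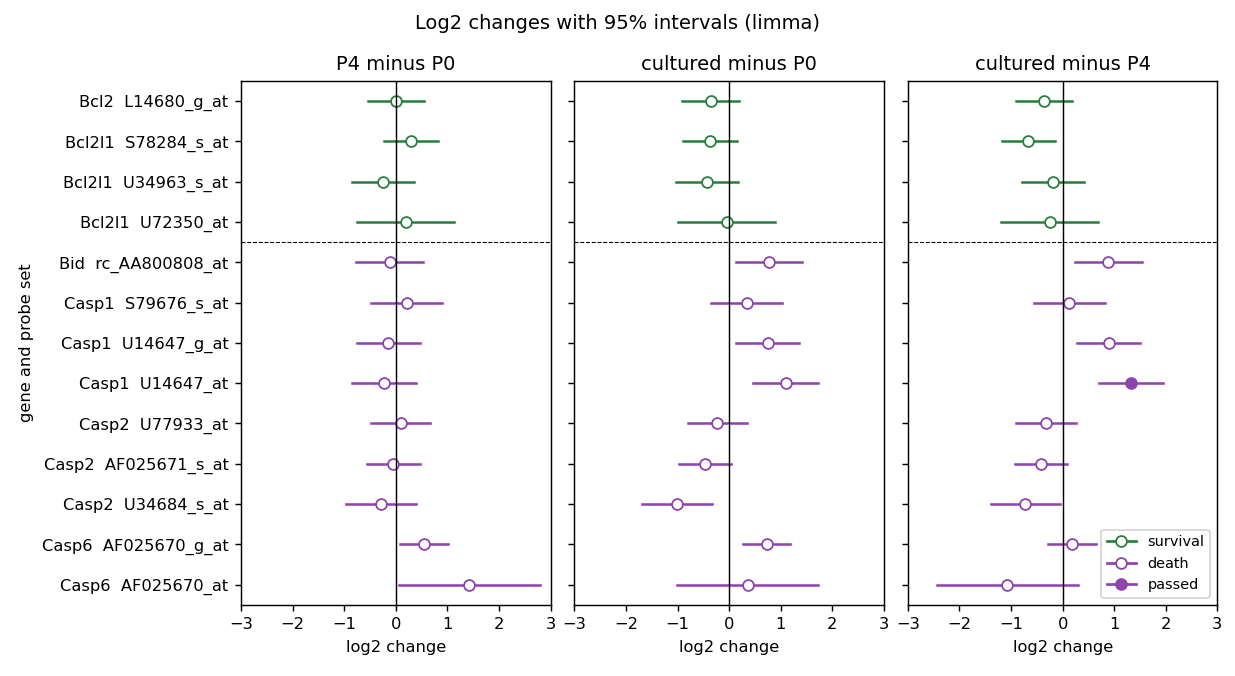
Log2 changes (points) with 95% limma intervals (bars) of the 13 tested probe sets in the 3 comparisons, survival genes above the dashed line and death genes below it; a filled point passed at an adjusted p under 0.05. The only filled point is Casp1 U14647_at in cultured against P4, at 1.32.

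Set side by side, survival and death genes did not separate between P4 and P0. None of the 13 probe sets passed there, against 1.08% of all 6118 tested (0.85% higher and 0.229% lower), and 2 had an unadjusted limma p under 0.05, against 13.0% of all tested. That fit left out the chip ID batch that pairs these arrays. Of all 6118, 66 passed in it, 314 with the replicate block and 335 with the chip ID batch as a random block. Of the 13, 1 passed with the replicate block and 0 with the random block. The median log2 change was 0.10 over the 4 survival probe sets and -0.05 over the 9 death probe sets, beside -0.05 over all tested. The groups did not overlap for 4 of the 13, against 44.2% of all tested. P4 lay higher for 3 and lower for 1, against 18.6% and 25.7% of all tested.

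In cultured against P0, again none of the 13 passed, against 5.43% of all tested (3.48% higher and 1.95% lower), and 5 had an unadjusted limma p under 0.05, against 20.8% of all tested. All 4 survival probe sets had negative changes, with a median of -0.37, while 6 of 9 death probe sets had positive ones, with a median of 0.36, beside -0.08 over all tested. These counts are of probe sets and not of independent genes. The survival ones were 1 of Bcl2 and 3 of Bcl2l1, of which U72350_at had a change of only -0.05. The death median rests on a mixture of genes, since those of Casp1 (3 probe sets), Bid and Casp6 were positive and those of Casp2 negative. It was -0.23 with a stricter filter on dim probe sets, which keeps 9 of the 13. The groups did not overlap for 9 of the 13, against 50.4% of all tested. Cultured ovaries lay higher for 4, all of death genes, and lower for 5, which were 3 of survival and 2 of death genes, against 21.3% and 29.0% of all tested.

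In cultured against P4, 1 of the 13 passed, against 2.78% of all tested (2.16% higher and 0.621% lower), and 5 had an unadjusted limma p under 0.05, against 14.0% of all tested. The medians were -0.30 for survival and 0.13 for death probe sets, beside -0.04 over all tested. The death median was -0.32 with the stricter filter. The groups did not overlap for 9 of the 13, against 43.6%. Cultured ovaries lay higher for 4, all of death genes, and lower for 5, which were 2 of survival and 3 of death genes, against 19.1% and 24.5% of all tested. Cultured against P0 and cultured against P4 share the cultured arrays, so their values are not independent of each other.

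Other genes of cell death, from lists by role, gave no further call outside the caspase-1 list. Of the BCL2 family effectors, Bok and Bak1 had 3 tested probe sets and none passed. Bak1, which like BAX opens the mitochondrial membrane, read 108.3 and 95.7 in cultured, 111.1 and 105.5 in P4 and 69.2 and 84.8 in P0 ovaries (log2 change for P4 against P0 0.46, limma adjusted p = 0.432). Bok had a log2 change of 0.45 for P4 against P0 on AF027954_at (limma adjusted p = 0.425). The other survival gene measured, Bcl2l2, had one of -0.44 for cultured against P0 (limma adjusted p = 0.454).

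Beside Bid, 4 further BH3-only genes had 5 tested probe sets, and none passed. Bad had a log2 change of 0.51 for P4 against P0 on AF003523_s_at (limma adjusted p = 0.462), and Bnip3l, a mitochondrial receptor for autophagy, one of 0.41 for cultured against P4 (limma adjusted p = 0.467). Among death receptor genes, 2 of 6 probe sets were bright enough to test. The receptor Tnfrsf1a read 149.5 and 158.7 in cultured, 126.6 and 144.1 in P4 and 133.4 and 116.2 in P0 ovaries (log2 change for cultured against P0 0.29, limma adjusted p = 0.485). Faim2, an inhibitor of Fas signalling, had a log2 change of -0.43 in that comparison (limma adjusted p = 0.584). It read 16.5 and 9.2 in cultured and 22.2 and 17.2 in P0 ovaries, or 0.949-fold with arrays under 20 set to 20.

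The ligand gene Faslg, at 2.1 to 17.5, stayed under the control level like Fas. Of the inhibitors of apoptosis and their antagonists, Diablo had a log2 change of -0.37 for P4 against P0 (limma adjusted p = 0.482) and Birc2 one of -0.90 for cultured against P0 (limma adjusted p = 0.429), where the P0 arrays read 7.0 and 55.5. Of 5 probe sets for mitochondrial and execution genes none passed: Parp1, a substrate of executioner caspases, had a log2 change of -0.57 for cultured against P4 on U94340_at (limma adjusted p = 0.215) and the channel gene Vdac1 one of 0.61 for P4 against P0 on AF048828_g_at (limma adjusted p = 0.274). No caspase gene outside the 9 was analysed here.

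The profile of Casp1 U14647_at over the 6 arrays was most like those of Ceacam4, Rab38 and Cstb, with Pearson correlations of 0.995, 0.995 and 0.988 of log2 values among 5024 probe sets of other genes, of which 72 exceeded 0.95. That of Casp6 AF025670_g_at was most like those of Cyb5a, Aco1 and Serpinb9, at 0.986, 0.985 and 0.979 among 5025, of which 14 exceeded 0.95. These are descriptions over arrays that share 3 groups. Cstb, an inhibitor of cathepsins, read 713.9 and 611.2 in cultured, 313.2 and 340.3 in P4 and 358.2 and 361.6 in P0 ovaries.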

How the data were processed

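Total RNA was labelled with biotin and hybridized to 1 array per pool, per the labels' protocols. The deposited values are linear intensities, which the authors had scaled (the mean left after trimming 2% at each end was 125.2 on all 6 arrays). The algorithm is not given in the sources used here. Replicates are described as independent RNA samples.

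From these, log2(intensity + 7.7), the pseudocount being the 20th percentile of all values, was computed without further normalization. After 59 control probe sets and 2622 with a mean under the 30th percentile had been left out, 6118 were tested in limma 3.58.1 (R 4.3.3), with 3 group means fitted to all 6 arrays, a variance trend and Benjamini-Hochberg adjustment over all 6118. A probe set passed at an adjusted p under 0.05. Intervals are unadjusted. Exact permutation tests of 2 against 2 arrays cannot go below p = 0.333. On simulated arrays with these means, 6118 probe sets and P4 against P0, 85.2% of 2-fold and 100% of 4-fold changes were recovered. The simulated noise had a single spread, the median over tested probe sets, and no batch. That setting is easier than the data, where the spread differs between probe sets, so these shares are not the recovery to be had for the members. In the data, the granulosa gene Amh had a log2 change of 1.21 for P4 against P0 (SE 0.24) and did not pass (limma adjusted p = 0.0506). No detection calls were used. A fold given as at least N sets arrays under 20, the highest reading among 23 control probe sets for transcripts not spiked in, to 20. It allows for that floor only and is not the lower end of an interval.

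Symbols came from the array's annotation, of which 6994 were matched by gene number to RefSeq genes. All member probe sets were named. Of other lists, each passing gene or up to 2 of smallest p were named, and for the 2 member probe sets of smallest F-test p the 3 best correlated genes. Zp2, Amh, Lyz2, Ctss, Cd14, Ptprc, C1qc, Fcgr2b, Itgam, Il18, Il1a, Il1r2 and Faslg were named after their values were seen. Members and lists were chosen with earlier results of these data known. P4 and P0 arrays of the same number share a chip ID batch (A or B), which pairs them (correlation of deviations 0.33), and each cultured array has its own. In comparisons with cultured arrays, culture cannot be told apart from chip ID batch or from days since birth. Alternatives were 15 in all: the pseudocount, the filter, quantile normalization, the variance trend, the arrays fitted, batch and replicate blocks, and each array left out.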

Additional observations from a re-analysis of the deposited data

How the results depend on the processing

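Of 573 alternative values of single probe sets, over 39 results, 538 kept their direction and side of the threshold, 6 gained a call, 6 lost one and 23 changed sign, none of these in a called result. In P4 against P0, 0 member probe sets passed, but 1 did with the replicate block (Casp6 AF025670_at, limma adjusted p = 0.0308, and 0.134 with the chip ID batch as a random block). In cultured against P0, 0 passed, against 1 with the pseudocount at the 40% point, with quantile normalization or with no variance trend (Casp1 U14647_at, limma adjusted p = 0.0412, 0.0447 and 0.0365), and 2 with the replicate block (Casp1 U14647_at and Casp2 U34684_s_at, 0.0365 and 0.0231). In cultured against P4, 1 passed, against 0 without the filter, with the filter at the 50% point (which removes Casp1 U14647_at) and with the replicate block (0.0644), and 0 to 1 when an array was left out. The replicate block in comparisons with cultured arrays rests on a shared number only, since same-numbered deviations correlated at -0.13 with P0 and -0.05 with P4. Over all settings, Casp1 U14647_at changed by 0.89 to 1.59 in cultured against P4 and 0.76 to 1.29 against P0.

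Filtering at the 50% point gave death medians of -0.23 for cultured against P0 and -0.32 for cultured against P4. With an array left out, the survival median lay between -0.23 and 0.27 for P4 against P0 and between -0.64 and -0.11 for cultured against P4, and the death median between -0.13 and 0.79 for cultured against P0. The P4 against P0 change of Bcl2 L14680_g_at was 0.00037 with the pseudocount at the 5% point and 0.037 after quantile normalization, which gave 0.011 for Casp2 AF025671_s_at.

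Leaving out an array changed the sign of these values. For P4 against P0 the ranges were -0.19 to 0.19 (Bcl2 L14680_g_at), -0.37 to 0.76 (Bcl2l1 U72350_at), -0.29 to 0.059 (Bid), -0.26 to 0.68 (Casp1 S79676_s_at), -0.11 to 0.023 (Casp2 AF025671_s_at), -0.62 to 0.041 (Casp2 U34684_s_at) and -0.28 to 0.47 (Casp2 U77933_at). For cultured against P0 they were -0.45 to 0.35 (Bcl2l1 U72350_at), -0.13 to 0.81 (Casp1 S79676_s_at), -0.61 to 0.145 (Casp2 U77933_at) and -0.73 to 1.44 (Casp6 AF025670_at). For cultured against P4 they were -0.42 to 0.043 (Bcl2l1 U34963_s_at), -0.81 to 0.32 (Bcl2l1 U72350_at) and -2.16 to 0.019 (Casp6 AF025670_at). The causes were not tested. Signal near the control level of 20 limits Casp1 U14647_at and U14647_g_at, Casp6 AF025670_at, Bid and Fas. It does not limit Casp1 S79676_s_at, at 45.6 to 94.4.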

Other observations

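Genes of the p53 and DNA damage response, which feed the mitochondrial route, had 12 tested probe sets from 6 genes, and none passed in any comparison. Gadd45a, induced by DNA damage, read 78.2 and 86.0 in cultured, 44.5 and 74.2 in P4 and 46.1 and 13.1 in P0 ovaries on rc_AI070295_at (log2 change for cultured against P0 1.42, limma adjusted p = 0.0885). The P0 arrays differed widely there. On the brighter L32591mRNA_at and L32591mRNA_g_at both cultured arrays lay above every fresh one. Their log2 changes for cultured against P0 were 0.70 and 0.66 (limma adjusted p = 0.155 and 0.192). On rc_AI070295_g_at the change was 0.80 (limma adjusted p = 0.162), with P4 replicate 2 above both cultured arrays. Mdm2, which targets p53 for degradation, read 90.0 and 114.6 in cultured, 129.7 and 141.0 in P4 and 182.7 and 155.9 in P0 ovaries on AA108308_s_at (log2 change for cultured against P0 -0.69, limma adjusted p = 0.112). The groups did not overlap on that probe set, with P0 highest and cultured lowest. Other tested Mdm2 probe sets did not share this order. On AA875509_at P4 was highest, with a log2 change of 0.45 for P4 against P0 (limma adjusted p = 0.522). Changes for cultured against P0 were -0.11 there and -0.07 on rc_AI639488_at, where the groups overlapped.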
